A study of Mus musculus with 6 samples.

Results

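The extracellular matrix and adhesion genes of B16-F3, a pigmented mouse melanoma line, were compared between cells sorted for high and for low melanin content. The set was fixed by gene symbol: collagens, laminins, integrins, matrix metalloproteinases (Mmp), their tissue inhibitors (Timp), the Adamts proteases, the lysyl oxidase (Lox) and lysyl hydroxylase (Plod) families, and Fn1, Sparc, Spp1, Vcan, Postn and Tgfbi. In all, 142 of the 22740 genes of the count table matched, and 80 of them had enough reads to be tested among 11921 genes. The high-pigmented cells (HPC) and the low-pigmented cells (LPC) came from one untreated line grown in DMEM with fetal bovine serum, and each population gave 3 RNA libraries, numbered 1 to 3. Sorting used the light scatter of melanin, so the groups are fractions of one culture line and not separate clones. The labels name no altered gene and no drug for either group.

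The matrix is the protein network outside cells. Collagens and laminins are trimers, collagens as fibrils or as the sheet-like network of basement membranes, where laminins form a second network. Integrins are receptors made of 1 alpha and 1 beta subunit that hold cells to these proteins and signal from them, while metalloproteinases cut the matrix and Timp proteins block that cutting. Melanoma cells make much of their own matrix, and integrins such as αvβ3 are known for their part in melanoma invasion. Lysyl hydroxylases and lysyl oxidases modify collagen lysines, which lets fibrils be cross-linked.

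Total counts ranged from 18131623 to 22186743 in HPC and from 14695822 to 18810435 in LPC, and mitochondrial genes took 2.07% to 3.21% of counts in HPC and 2.36% to 2.56% in LPC. The 6 melanocyte markers Pmel, Dct, Tyrp1, Mlana, Mitf and Sox10 summed to between 32533 and 35952 CPM (counts scaled to the library total after TMM adjustment) in HPC and between 31930 and 34398 CPM in LPC, so the labelled cell type was evident in all 6 libraries. Of 8 endothelial markers, Cdh5, Kdr, Emcn and Cldn5 had no count in any library, and the list summed to 9.91 to 10.7 CPM in HPC and 1.42 to 7.90 CPM in LPC, most of it Vwf. These sums lay higher in HPC without overlap, and the 1 tested gene had a log2 fold change of 0.97 with no edgeR call. Of 10 immune markers, 5 had no count, and the list summed to 8.52 to 16.1 CPM in HPC and 4.32 to 9.71 CPM in LPC. Among its 3 tested genes, 1 was higher in HPC at an unadjusted edgeR p under 0.05, beside 5.06% of all tested genes. None was called in either edgeR fit. Of 7 keratinocyte markers, 5 had no count, with sums of 2.62 to 4.38 CPM in HPC and 2.36 to 3.01 CPM in LPC. The 9 fibroblast markers, which include the members Col1a1, Col1a2 and Col3a1, summed to 19.4 to 28.6 CPM in HPC and 17.6 to 34.5 CPM in LPC, with Dpt at 0 and Dcn, Lum and Thy1 at 0 to 0.135 CPM in any library. One of these 9, Pdgfra, was at 4.32, 3.07 and 5.54 CPM in HPC, against 6.27, 8.13 and 13.99 CPM in LPC, and passed as lower when the replicate number was fitted as a block (edgeR adjusted p = 0.045). The part of these marker levels in the results was not tested. One library stood apart in composition. In LPC replicate 2, 13.02% of the variance of log2 CPM deviations from the gene means over 6 libraries followed transcript length and GC content. That share was 2.62% to 6.68% in HPC and 3.01% to 3.97% in the other LPC libraries. The members' longest transcripts are long, with a median of 5270 nucleotides over the 80 tested members and 3449 over all tested genes.

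Matrix and adhesion transcripts took 0.568% to 0.648% of all counts in HPC and 0.587% to 0.657% in LPC. Their summed level was 5906, 5682 and 6497 CPM in HPC replicates 1, 2 and 3, and 5817, 6035 and 6549 CPM in LPC replicates 1, 2 and 3. The groups overlapped, so the summed level of the class did not separate the more from the less pigmented cells. The sums of the integrin beta, Lox and Timp symbols lay lower in HPC without overlap. That of Fn1, Sparc, Spp1, Vcan, Postn and Tgfbi lay higher, at 783 to 888 CPM in HPC against 545 to 714 CPM in LPC. The sums of the other families overlapped, and none of these sums was tested. In these bulk libraries, fewer cells expressing a gene and less RNA per cell cannot be told apart. Each read marks 1 transcript end in this assay, so CPM does not scale with transcript length and levels of different genes are compared on that scale.

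The members spanned a wide range of levels. Over the 6 libraries, 19 members averaged at least 100 CPM, 26 lay between 10 and 100 CPM, 30 between 1 and 10 CPM, and 43 had counts but averaged under 1 CPM. The remaining 24 had no count in any library, which allows a level of up to 0.168 CPM in an HPC library and 0.202 CPM in an LPC library, from 3 counts in the shallowest library of each group. The genes without counts included Lox and Loxl1 among the lysyl oxidases, Lama1 among the laminins, Col5a2 and Col6a1 among the collagens, Itgb6 and Itgax among the integrins, and Mmp7, Mmp8 and Mmp10. The highest levels were those of Itgb1, a beta subunit shared by many integrins, and Sparc, a collagen-binding matricellular protein.

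**Figure D1:**
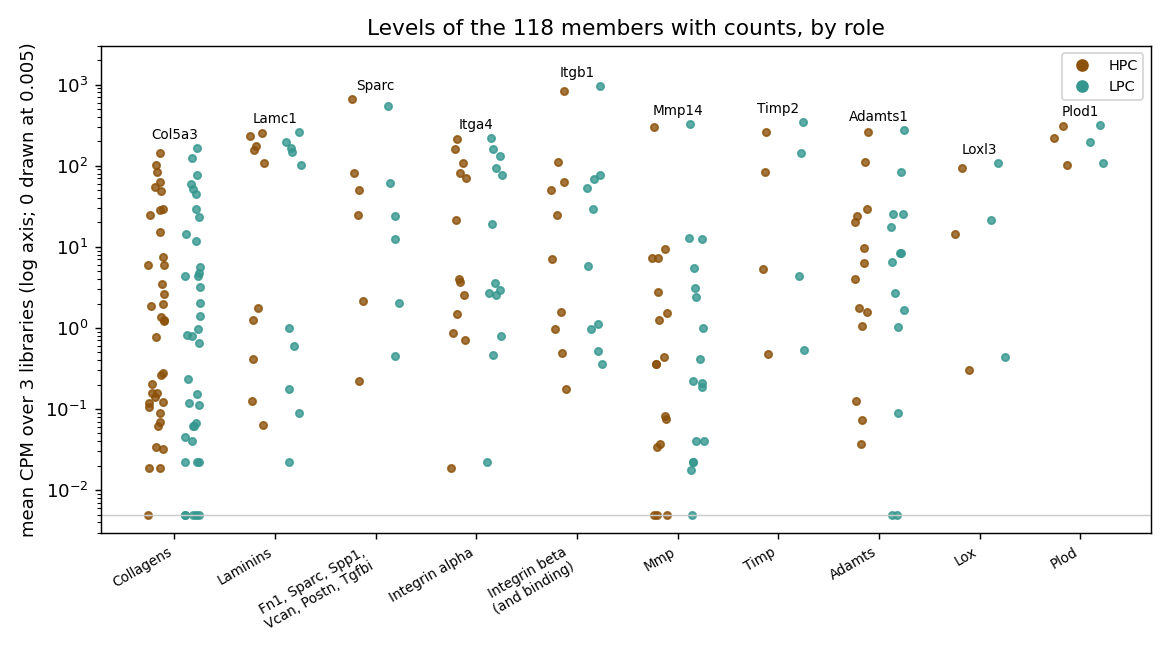
Mean level in CPM (log axis) of each member with counts, in HPC (left, brown) and LPC (right, green) within each role; each point is a mean over 3 libraries and the most abundant member of each role is named. Itgb1 and Sparc lie at the top, the laminins fall into an abundant and a rare set, and the 2 groups span much the same range in every role.

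No member passed the test of HPC against LPC when group was the only term (edgeR quasi-likelihood test, Benjamini-Hochberg adjusted p under 0.05), a rule that called 0.0419% of all tested genes (5 of 11921). At an unadjusted p under 0.05 there were 11 members, 6 higher and 5 lower in HPC, which is 13.75% of the 80 tested. Of all tested genes 9.37% had such a p, 5.06% as higher and 4.31% as lower. DESeq2, another count model, called 4 members on the same design, Col16a1 and Postn as higher and Col5a1 and Itga3 as lower in HPC. It called 1.88% of all tested genes, 1.02% as higher and 0.856% as lower. When the replicate number was added as a block, which compares HPC and LPC libraries of equal number, edgeR called 6 members. Of these, 4 were higher in HPC, namely Postn, Col16a1, Col4a5 and Itgav (1.43% of all tested genes were called in that direction), and 2 were lower, namely Timp3 and Col5a1 (1.1% of all tested genes). The 6 are 7.5% of the tested members, against 2.52% of all tested genes called in either direction. limma-voom with the block called the same 6, against 2.5% of all tested genes. DESeq2 with the block called 12, adding Itga4, Itga3, Timp2, Mmp15, Itgb3 and Col11a2, against 4.19% of all tested genes, 2.64% as higher and 1.55% as lower. At an unadjusted p under 0.05 the blocked edgeR fit held 31 members, or 38.75%, against 18.8% of all tested genes, 10.1% as higher and 8.66% as lower. Left without the pair numbered 2, the blocked edgeR fit called 0 members and 0 genes in all, and the adjusted p of the 6 ran from 0.18 for Timp3 to 0.47 for Col4a5. Without the pair numbered 3 it called Col16a1, Col5a1 and Timp3 of these 6, and not Postn, Col4a5 or Itgav. It then called 6 members, against 196 of 11929 genes in all. Without the pair numbered 1 it called 32 members, against 2947 of 12018 genes in all. Each of these fits has 1 residual degree of freedom. Every one of the 6 kept its sign when any library or pair was left out.

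Differences went both ways. The log2 fold change was positive in 40 of the 80 tested members and negative in 40, with a median of -0.01, which was also the median of all tested genes. The median size of the log2 fold change regardless of sign was 0.30 in the members and 0.14 over all tested genes, beside a median level of 18.9 CPM in the members and 38.7 CPM over all tested genes. The 3 HPC libraries lay all above or all below the 3 LPC libraries in 17 members, 9 higher and 8 lower, or 21.25% of those tested, against 14.3% of all tested genes (7.16% higher and 7.18% lower). All 3 pairs of equal number had the same sign in 50 members, 25 higher and 25 lower, or 62.5% against 40.9% of all tested genes (19.6% higher and 21.3% lower). Since the filter on low counts keeps a gene that is expressed in 1 group alone, these shares describe the 80 tested members and not all 142. The members were chosen with earlier results of these data known. Shares above those of all tested genes, here and among the calls, are therefore not independent of these data. Besides the members named by rule, partner chains and subunits are given for their roles, chosen after their values were seen.

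**Figure D2:**
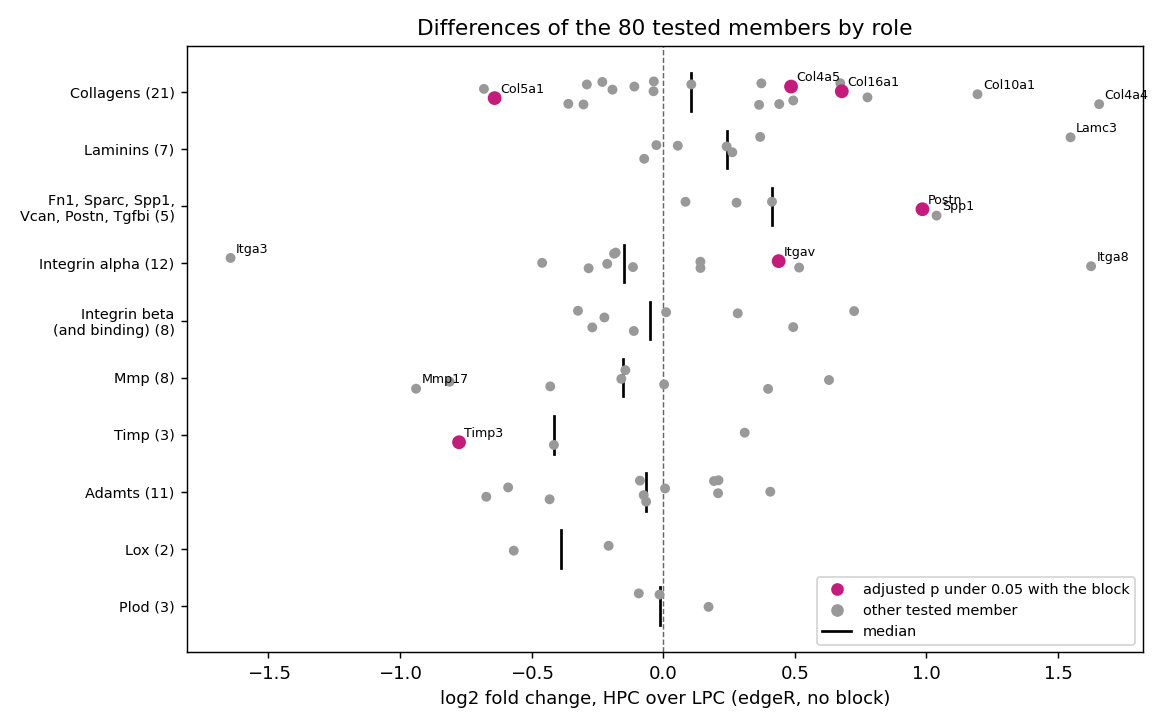
Log2 fold change of HPC over LPC (edgeR, no block) for the 80 tested members by role, with the number tested in parentheses, the median as a black bar and the 6 members called with the replicate block in magenta. Values lie on both sides of 0 in most roles; Postn, Col16a1, Col4a5 and Itgav are to the right of 0, and Col5a1 and Timp3 to the left.

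Among the 44 collagen genes, 21 were tested, 11 with positive and 10 with negative log2 fold changes (median 0.11). Col16a1, which encodes a fibril-associated collagen, had 77.5, 72.6 and 99.4 CPM in HPC replicates 1, 2 and 3, against 41.2, 51.1 and 63.6 CPM in LPC replicates 1, 2 and 3. All HPC libraries lay above all LPC libraries. With the block it was 1.61-fold higher in HPC (edgeR log2 fold change 0.69, SE 0.11, adjusted p = 0.028), and without the block the edgeR adjusted p was 0.28 and that of DESeq2 0.044.

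Col5a1 moved the other way. It encodes the main chain of type V collagen, which starts the assembly of type I collagen fibrils, and stood at 38.4, 50.96 and 56.8 CPM in HPC, against 69.1, 84.1 and 74.8 CPM in LPC. The groups did not overlap. With the block it was 1.57-fold lower in HPC (edgeR log2 fold change -0.65, SE 0.11, adjusted p = 0.033, against 0.24 without it). Its partner chain gene Col5a3, the most abundant collagen transcript here, averaged 144 CPM in HPC (SD 30.03, n = 3), against 164 CPM in LPC (SD 20.2, n = 3), with no call in the blocked fit (log2 fold change -0.21, edgeR adjusted p = 0.33).

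Of the basement membrane collagen IV genes, only Col4a5 was called with the block. Col4a5, the X-linked gene of the alpha 5 chain, was at 56.0, 60.3 and 70.5 CPM in HPC, against 41.5, 37.98 and 53.97 CPM in LPC. The lowest HPC library lay just above the highest LPC library. With the block it was 1.41-fold higher in HPC (edgeR log2 fold change 0.49, SE 0.10, adjusted p = 0.0495), and under upper quartile scaling, library size scaling or a length and GC correction of that fit it no longer passed. Col4a1, whose chain forms the common network with that of Col4a2, was at 68.0, 113 and 128 CPM in HPC, against 115, 134 and 129 CPM in LPC. It did not pass without the block (log2 fold change -0.29, 95% interval -0.78 to 0.20, edgeR adjusted p = 0.75) or with it (0.26). Col4a2, which lies head to head with Col4a1, was at 42.1, 59.0 and 62.1 CPM in HPC, against 60.6, 63.7 and 51.9 CPM in LPC, with no call in either fit (log2 fold change -0.11, 95% interval -0.49 to 0.27). Whether Col4a5 differs from Col4a1 and Col4a2 in its response was not tested. Among the other chains of this family, Col4a4 was at 1.46, 2.80 and 1.63 CPM in HPC, against 0.337, 0.0528 and 1.54 CPM in LPC. It was higher in HPC in each pair, with the largest positive log2 fold change of the tested members (1.66 without the block). These levels were low, and it did not pass in either edgeR fit (adjusted p = 0.58, or 0.24 with the block). Blocked edgeR called Col4a4 when the pair numbered 1 or the pair numbered 3 was left out. Col4a3 and Col4a6 were under 0.5 CPM in all 6 libraries.

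Both type I collagen genes, which encode the main fibrillar collagen of connective tissue, were less abundant than Col5a1 and Col5a3. Col1a2 was at 21.1, 13.98 and 10.9 CPM in HPC, against 24.0, 6.55 and 5.02 CPM in LPC, so that the libraries numbered 1 stood highest in both groups. Col1a1, its partner chain gene, was at 2.64, 2.48 and 2.69 CPM in HPC, against 3.85, 2.80 and 3.01 CPM in LPC. These levels were low and did not pass in either fit (edgeR adjusted p with the block 0.26 for Col1a2 and 0.54 for Col1a1).

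Of 11 laminin genes, 7 were tested, and 5 of them were abundant: Lamc1, Lamb2, Lama4, Lama5 and Lamb1, the chains of laminins with an alpha 4 or alpha 5 subunit. None passed in either edgeR fit. Log2 fold changes of the 7 ran from -0.07 to 1.55 (median 0.24), 5 positive and 2 negative. At an unadjusted p under 0.05 the blocked edgeR fit held 3 of them, or 42.9%, against 18.8% of all tested genes. When the pair numbered 1 was left out, blocked edgeR called Lama5, Lamc1 and Lamc3. Lamc1, which encodes the gamma 1 chain found in most laminins, was at 223, 288 and 256 CPM in HPC, against 317, 247 and 216 CPM in LPC. The groups overlapped, with a log2 fold change of -0.03 and a 95% interval from -0.40 to 0.35. Lamb2 was at 204, 206 and 289 CPM in HPC, against 168, 195 and 229 CPM in LPC, higher in HPC in each pair but not past the test (edgeR adjusted p = 0.24 with the block). Lama5, the alpha 5 chain gene, followed the replicate number more than the sort, at 92.0, 175 and 261 CPM in HPC, against 84.5, 139 and 217 CPM in LPC. Lamc3 and Lama3 averaged under 2 CPM in each group.

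The single matrix proteins were Sparc, Fn1, Spp1, Postn, Vcan and Tgfbi, of which 5 were tested, all with positive log2 fold changes (median 0.41). Postn, which encodes periostin, a matricellular protein that binds collagen and integrins, was at 16.6, 26.4 and 32.0 CPM in HPC, against 11.9, 10.4 and 15.7 CPM in LPC. The groups did not overlap, but the gap was narrow, at 16.6 CPM in HPC replicate 1 against 15.7 CPM in LPC replicate 3. With the block it was 1.95-fold higher in HPC (edgeR log2 fold change 0.96, SE 0.17, adjusted p = 0.039), and without the block the edgeR adjusted p was 0.27 and that of DESeq2 0.026.

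Fn1, the gene of fibronectin, was at 76.1, 87.8 and 82.2 CPM in HPC, against 71.6, 62.3 and 50.9 CPM in LPC. The groups did not overlap, but the pair numbered 1 differed by only 0.09 on the log2 scale, against 0.49 and 0.69 in the pairs numbered 2 and 3, and the edgeR adjusted p was 0.42 without the block and 0.14 with it. Spp1, which encodes osteopontin, a secreted integrin ligand linked to melanoma progression, was at 27.7, 51.7 and 70.3 CPM in HPC, against 3.04, 22.8 and 47.1 CPM in LPC. It was higher in HPC in each pair, by 3.14, 1.18 and 0.58 on the log2 scale in the pairs numbered 1, 2 and 3, while the groups overlapped. The log2 fold change with the block was 1.41 (SE 0.38, edgeR adjusted p = 0.11), and without it 1.04 (edgeR adjusted p = 0.73). This value rested on single libraries: without the block it was 0.52 when LPC replicate 1 was left out and 1.93 when LPC replicate 3 was left out, with no call in either. Blocked edgeR called Spp1 without the filter (adjusted p = 0.016) and when the pair numbered 1 or the pair numbered 3 was left out.

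Sparc was at 764, 638 and 597 CPM in HPC, against 456, 616 and 576 CPM in LPC, with overlapping groups and most of the difference in the pair numbered 1. It did not pass (log2 fold change 0.28, 95% interval -0.07 to 0.63, edgeR adjusted p = 0.64). Vcan, the gene of the proteoglycan versican, was at 2.98, 2.12 and 1.27 CPM in HPC, against 2.43, 1.32 and 2.28 CPM in LPC. Tgfbi was too low to be tested, at 0.22, 0.14 and 0.31 CPM in HPC, against 0.20, 0.69 and 0.47 CPM in LPC.

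**Figure D3:**
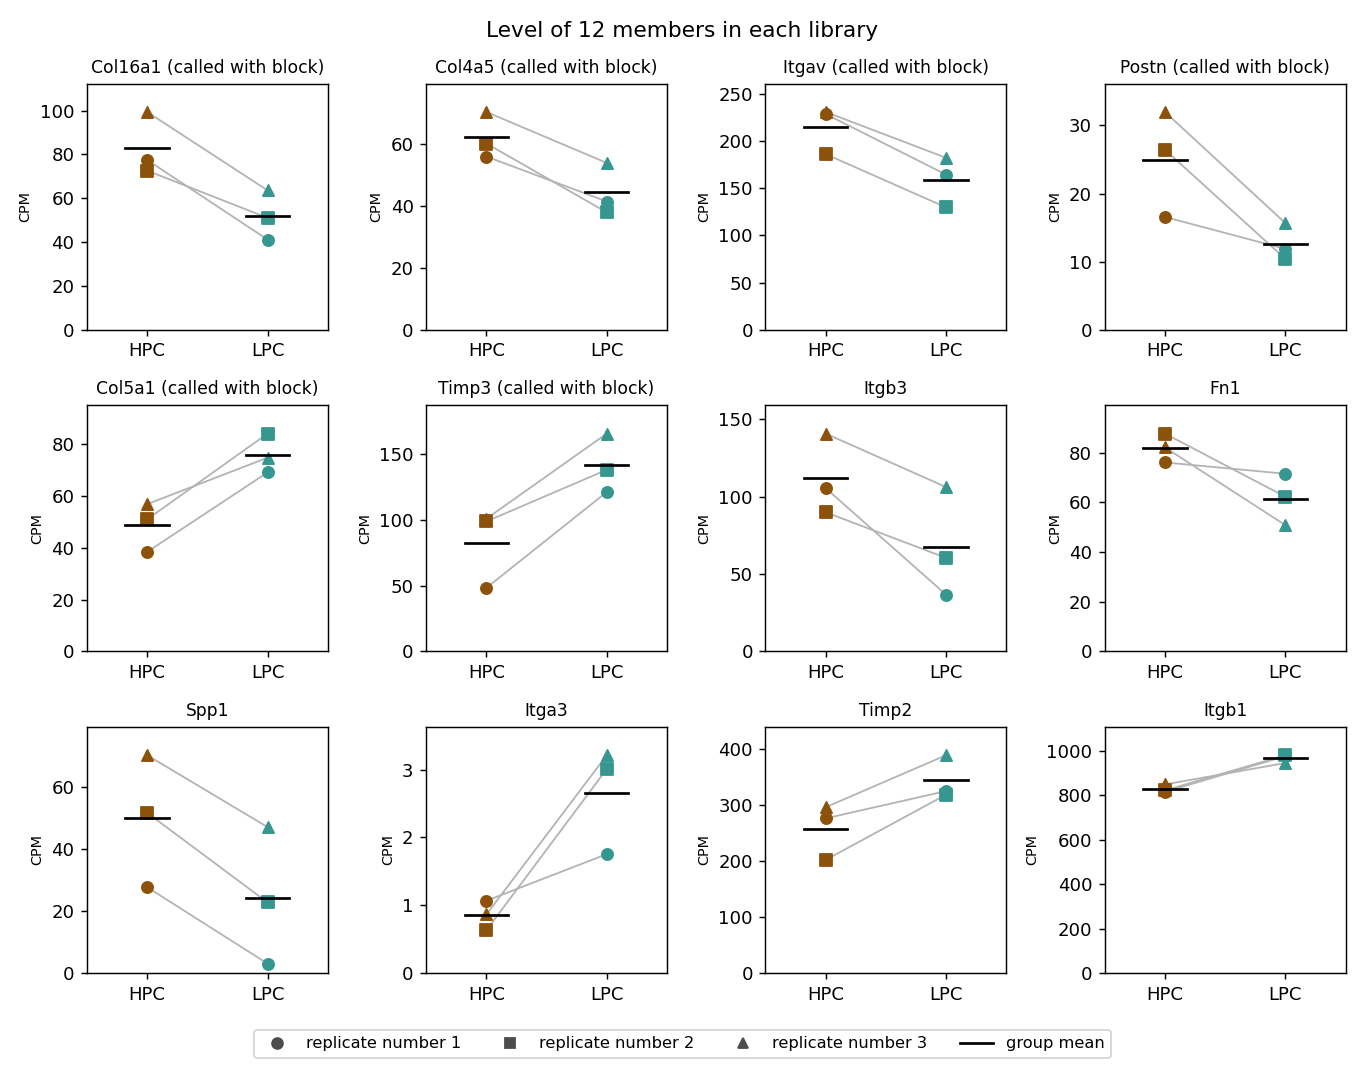
Level in CPM of 12 members in each library, HPC left and LPC right, with lines joining libraries of equal replicate number and black bars for group means. Postn, Col16a1, Col4a5 and Itgav slope down to LPC and Col5a1 and Timp3 slope up in all 3 pairs, while Spp1 and Itgb3 slope down in all 3 pairs with overlapping groups.

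Integrin alpha genes that match the symbol rule numbered 14, of which 12 were tested, 5 with positive and 7 with negative log2 fold changes (median -0.15). The rule does not take in every alpha gene: Itgam, which had no count, falls outside it. Itgav, the gene of the αv subunit, which pairs with several beta subunits and binds fibronectin, osteopontin and periostin, was at 228, 186 and 231 CPM in HPC, against 164, 130 and 182 CPM in LPC. The lowest HPC library exceeded the highest LPC library only narrowly, at 186 against 182 CPM. With the block Itgav was 1.36-fold higher in HPC (edgeR log2 fold change 0.45, SE 0.09, adjusted p = 0.0495, against 0.44 without it). It no longer passed in the blocked fit under upper quartile scaling, library size scaling or the length and GC correction, where its log2 fold change was 0.34 and its adjusted p 0.067.

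Itgb3, the beta partner of αv in the αvβ3 receptor, lies outside the naming rule and was named after its values were seen. It was at 106, 90.0 and 141 CPM in HPC, against 36.7, 60.5 and 106 CPM in LPC. It was higher in HPC in every pair, but the groups overlapped. Its blocked log2 fold change was 0.82 (SE 0.20), which edgeR did not call (adjusted p = 0.086, against 0.59 without the block), while DESeq2 with the block called it (adjusted p = 0.00072). Over the other scalings and filters and the length and GC correction, its blocked edgeR adjusted p ran from 0.014 to 0.098. Itgb5, whose product is another partner of αv, was at 44.1, 67.4 and 75.1 CPM in HPC, against 69.1, 86.6 and 78.0 CPM in LPC, with a log2 fold change of -0.35 and an adjusted p of 0.19 in the blocked edgeR fit.

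The beta 1 integrins were led by Itgb1 itself, at 814, 821 and 848 CPM in HPC, against 975, 979 and 944 CPM in LPC. The groups did not overlap and were tight within themselves, with a mean of 828 CPM in HPC (SD 17.8, n = 3), against 966 CPM in LPC (SD 19.2, n = 3). The difference was small and did not pass (log2 fold change -0.22, 95% interval -0.45 to 0.003, edgeR adjusted p = 0.54, or 0.25 with the block). Itga4, which encodes the alpha 4 subunit, a receptor for fibronectin and the endothelial adhesion protein VCAM-1, was at 215, 148 and 112 CPM in HPC, against 322, 182 and 150 CPM in LPC. It was lower in HPC in each pair although the groups overlapped, with a blocked log2 fold change of -0.43 (SE 0.10, edgeR adjusted p = 0.066). DESeq2 with the block called it, and so did blocked edgeR with upper quartile scaling, without the filter or after the length and GC correction.

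Itga6, the laminin-binding alpha 6 gene, Itga5, the fibronectin receptor alpha gene, and Itga9 were also lower in HPC in all 3 pairs, with blocked log2 fold changes of -0.25, -0.22 and -0.12 and edgeR adjusted p of 0.26, 0.30 and 0.50. Among rare subunits, Itga3, a laminin receptor gene, was at 1.07, 0.63 and 0.86 CPM in HPC, against 1.75, 3.01 and 3.21 CPM in LPC, from 19, 14 and 17 counts in HPC and 26, 57 and 48 counts in LPC. The groups did not overlap, and the log2 fold change was -1.64 (SE 0.37), which edgeR did not call (adjusted p = 0.20, or 0.064 with the block) and DESeq2 did (adjusted p = 0.032). Blocked edgeR without the filter also called it (adjusted p = 0.019). Itga8, named after its values were seen, was at 1.96, 1.08 and 1.37 CPM in HPC, against 0.337, 0.528 and 0.536 CPM in LPC, without overlap and without passing (edgeR adjusted p = 0.24, or 0.098 with the block). The symbols Itgb1bp1, Itgb1bp2 and Itgb3bp also match the rule but encode proteins that bind integrins or, for Itgb3bp, also a centromere protein; of these, Itgb1bp1 and Itgb3bp were tested, with log2 fold changes of -0.11 and -0.27 and no call.

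Of 23 Mmp genes, 8 were tested and none passed in either edgeR fit. The only abundant one was Mmp14, the membrane-anchored collagenase that also activates pro-Mmp2, at 331, 234 and 326 CPM in HPC, against 325, 306 and 355 CPM in LPC (log2 fold change -0.14, 95% interval -0.49 to 0.21). Mmp2, the gelatinase that Mmp14 activates, was at 9.54, 4.69 and 7.37 CPM in HPC, against 4.93, 4.49 and 6.96 CPM in LPC. Mmp17, another membrane-type gene, was at 0.954, 1.35 and 1.42 CPM in HPC, against 1.62, 2.75 and 2.81 CPM in LPC, without overlap (log2 fold change -0.94, SE 0.34, edgeR adjusted p = 0.46, or 0.12 with the block). Mmp15, named after its values were seen, was at 13.5, 4.01 and 4.42 CPM in HPC, against 13.1, 12.3 and 12.9 CPM in LPC. The pair numbered 1 was level while the other 2 pairs were lower in HPC, and DESeq2 with the block called it (adjusted p = 0.023) while blocked edgeR did not (adjusted p = 0.16). Mmp12, the macrophage elastase gene, had 19 counts in HPC replicate 1 and 0 in each of the other 5 libraries.

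The inhibitors of these enzymes lay lower in HPC for the 2 abundant genes of the family. Timp3, whose product is bound to the matrix, was at 48.4, 99.0 and 101 CPM in HPC, against 121, 138 and 166 CPM in LPC. The groups did not overlap, and HPC replicate 1 was the lowest library. With the block Timp3 was 1.78-fold lower in HPC (edgeR log2 fold change -0.84, SE 0.16, adjusted p = 0.042, against 0.42 without it). Without that pair its blocked log2 fold change was -0.59.

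Timp2, a soluble inhibitor that also takes part in the activation of pro-Mmp2 by Mmp14, was at 276, 202 and 296 CPM in HPC, against 325, 318 and 389 CPM in LPC, again without overlap. It did not pass in either edgeR fit (log2 fold change with the block -0.43, SE 0.11, adjusted p = 0.089, against 0.49 without it), and was called by DESeq2 with the block (adjusted p = 0.027) and by blocked edgeR without the filter or after the length and GC correction. Timp1 was at 4.49, 6.72 and 4.93 CPM in HPC, against 3.04, 5.28 and 4.69 CPM in LPC, and Timp4 was too low to be tested. The 4 Timp genes together summed to 308 to 402 CPM in HPC and 450 to 560 CPM in LPC.

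Adamts proteases, which are secreted and cut proteoglycans or process procollagens, had 11 tested genes of 19, 5 with positive and 6 with negative log2 fold changes, and none passed in either edgeR fit. Adamts1, which cuts versican and aggrecan, was at 282, 236 and 259 CPM in HPC, against 239, 266 and 321 CPM in LPC (log2 fold change -0.09, 95% interval -0.41 to 0.23). Adamts4, a proteoglycan-cutting enzyme gene, was at 120, 72.5 and 141 CPM in HPC, against 68.0, 65.0 and 119 CPM in LPC, higher in each pair and not past the test with the block (edgeR adjusted p = 0.18).

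No gene of the enzymes that modify collagen lysines passed in the edgeR fit with or without the block. Plod1, the most abundant lysyl hydroxylase gene, was at 288, 317 and 335 CPM in HPC, against 262, 357 and 330 CPM in LPC (log2 fold change -0.01, 95% interval -0.33 to 0.30). Loxl3, the most abundant gene of the lysyl oxidase family here, was at 106, 84.1 and 88.6 CPM in HPC, against 116, 99.5 and 106 CPM in LPC, lower in each pair with overlapping groups (log2 fold change -0.21, edgeR adjusted p = 0.69, or 0.26 with the block). Loxl2 was at 6.57, 17.8 and 19.1 CPM in HPC, against 8.23, 28.1 and 28.1 CPM in LPC, also lower in each pair (blocked log2 fold change -0.53, edgeR adjusted p = 0.084, and 0.046 to 0.084 over the other scalings, filters and the length and GC correction). The symbol Loxhd1 matches the rule as well but encodes no oxidase, and it had no count.

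**Figure D4:**
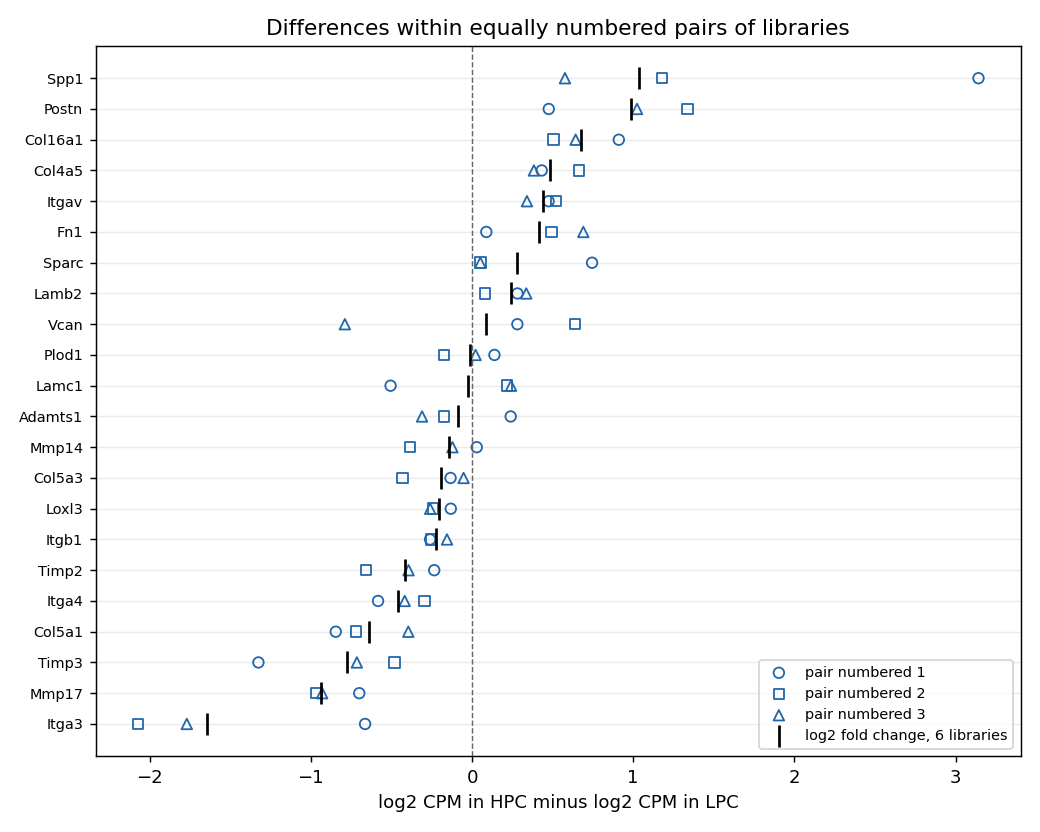
Difference of log2 CPM, HPC minus LPC, in each pair of equally numbered libraries (open symbols) for the 22 named members that were tested, with the log2 fold change over all 6 libraries as a black bar. Spp1 spreads most, from 0.58 in the pair numbered 3 to 3.14 in the pair numbered 1, whereas Itgav and Itgb1 keep within a narrow range on either side of 0.

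The replicate number took more variance than the sort in 55 of the 80 tested members (68.75%), against 72.0% of all tested genes. When the variance of log2 CPM over the 6 libraries was split, the number accounted for a median of 52.1% over the 80 tested members and 52.4% over all tested genes, and the sort for 20.9% and 16.5%. The number has 2 of the 5 degrees of freedom of this split and the sort 1, so a larger share for the number is no sign of an effect. The share of the number was 96.4% for Itga9 and 95.4% for Lama5, and the share of the sort was 95.4% for Itgb1, 85.99% for Itga8, 84.03% for Itga3 and 75.3% for Col5a1. Libraries numbered 3 stood highest in both groups for Lama5, Itga9 and Itgb3, and libraries numbered 1 stood highest in both groups for Itga4 and Col1a2. The labels do not say what the replicate number stands for.

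The members that passed with the block lie on different chromosomes or far apart. In GRCm38, Col16a1 (ENSMUSG00000040690) spans chromosome 4 from 130047840 to 130099283, Col5a1 (ENSMUSG00000026837) chromosome 2 from 27886425 to 28039514, Itgav (ENSMUSG00000027087) chromosome 2 from 83724397 to 83806916, Postn (ENSMUSG00000027750) chromosome 3 from 54361109 to 54391037, Timp3 (ENSMUSG00000020044) chromosome 10 from 86300372 to 86349506 and Col4a5 (ENSMUSG00000031274) chromosome X from 141475385 to 141689234, all on the plus strand. Col4a5 overlaps Gm15268 on its own strand and Gm15282 on the other, Itgav overlaps Dnmt3l-ps1 and Gm13684, Col5a1 overlaps 2810430I11Rik and Gm13372, and Timp3 lies within Syn3 on the opposite strand. Whether strand was used in counting is not given, so reads of a neighbour may stand in the counts of these 4 genes.

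The 250 bases before the start of 4 of these genes are shown, since they are the promoter-side sequence of members called with the block; the other 2, Col4a5 and Timp3, are left out because RefSeq and GENCODE place their starts 34 and 40 bases apart. Sequences are from RefSeq on GRCm38.p6, plus strand, 5′ to 3′. Capitals mark matches to the 6 motifs searched on both strands: the E-boxes of the kind bound by Mitf, TCACGTG or TCATGTG, the AP-1 motif TGANTCA, the TEAD motif GGAATG, the GC box with its letters GGGCGG and the TATA box with its letters TATAAA. No 2 marked matches overlap.
Postn, higher in HPC, chr3:54360857-54361106: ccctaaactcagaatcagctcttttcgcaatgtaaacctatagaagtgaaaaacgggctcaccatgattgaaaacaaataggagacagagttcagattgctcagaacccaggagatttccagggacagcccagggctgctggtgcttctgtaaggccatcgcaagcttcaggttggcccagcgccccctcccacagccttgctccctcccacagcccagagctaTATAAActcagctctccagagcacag
Col16a1, higher in HPC, chr4:130047590-130047839: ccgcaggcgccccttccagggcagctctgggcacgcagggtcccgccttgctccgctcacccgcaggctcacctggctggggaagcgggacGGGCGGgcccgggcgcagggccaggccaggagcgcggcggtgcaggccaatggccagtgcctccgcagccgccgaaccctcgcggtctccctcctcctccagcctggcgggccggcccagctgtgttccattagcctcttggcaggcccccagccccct
Itgav, higher in HPC, chr2:83724147-83724396: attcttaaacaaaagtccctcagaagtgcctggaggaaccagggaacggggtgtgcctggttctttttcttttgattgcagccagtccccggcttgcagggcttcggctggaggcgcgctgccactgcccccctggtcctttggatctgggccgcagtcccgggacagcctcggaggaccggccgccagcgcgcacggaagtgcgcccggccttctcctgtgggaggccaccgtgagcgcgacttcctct
Col5a1, lower in HPC, chr2:27886175-27886424: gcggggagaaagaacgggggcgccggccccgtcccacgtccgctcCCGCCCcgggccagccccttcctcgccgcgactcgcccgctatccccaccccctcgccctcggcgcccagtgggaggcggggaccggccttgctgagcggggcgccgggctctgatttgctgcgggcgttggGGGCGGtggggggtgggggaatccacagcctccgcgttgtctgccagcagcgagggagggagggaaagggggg

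These windows differ in kind. That of Postn holds a TATAAA match starting 26 bases before the start, a motif found in 12.4% of 32851 RefSeq promoter windows of the same length, and has a GC content of 52.0%. Those of Col16a1 and Col5a1 are GC-rich, at 75.6% and 76.4%, against a median of 52.4% over all windows, and hold 1 and 2 GC boxes, a motif of 32.7% of all windows. That of Itgav, with a GC content of 64.4%, holds none of the 6 motifs. Neither E-box, found in 3.13% and 3.25% of all windows, matched in the windows of any of the 6 called genes, and neither did the AP-1 motif (6.75% of all windows) or the TEAD motif (12.6%). A match is a run of letters and not a shown site, and the absence of one says only that these letters are not in this window.

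Other genes of the matrix and adhesion system were read from 5 lists, also chosen with earlier results of these data known. Of 53 basement membrane and other matrix glycoprotein genes, 28 were tested, and with the block edgeR called 4 higher and 1 lower in HPC, beside 1.43% and 1.1% of all tested genes (median log2 fold change 0.05). Tinagl1, a basement membrane glycoprotein gene, was at 13.1, 28.0 and 28.3 CPM in HPC, against 2.29, 6.87 and 9.51 CPM in LPC. The blocked fit put it 3.93-fold higher (edgeR adjusted p = 0.0077). Ecm1 was 2.21-fold higher (edgeR adjusted p = 0.0088), and Fbln5, an elastic fibre protein gene, was at 296, 375 and 342 CPM in HPC, against 193, 210 and 176 CPM in LPC, or 1.75-fold higher (edgeR adjusted p = 0.013). Ltbp4, which encodes a latent TGF-beta binding protein, was 2.03-fold lower (edgeR adjusted p = 0.011).

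Of 25 genes of collagen synthesis and processing, 21 were tested and 2 were lower in HPC with the block, beside 1.1% of all tested genes. Fkbp10, which encodes a collagen prolyl isomerase of the endoplasmic reticulum, was at 12.9, 21.3 and 18.96 CPM in HPC, against 32.9, 61.4 and 43.3 CPM in LPC, 2.57-fold lower (edgeR adjusted p = 0.0077). Serpinh1, the gene of the collagen chaperone Hsp47, was at 687, 676 and 571 CPM in HPC, against 929, 987 and 770 CPM in LPC, 1.39-fold lower (edgeR adjusted p = 0.046). Both had groups that did not overlap, and the median log2 fold change of the 21 genes was -0.03.

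Of 29 non-integrin receptors and partners, 27 were tested and 1, the glypican gene Gpc6, was higher with the block (1.51-fold, edgeR adjusted p = 0.046). Of 54 genes of integrin adhesion and signalling, Itgb1bp1 among them, 51 were tested and 1, Ptk2b, the focal adhesion kinase relative Pyk2, was higher (2.38-fold, edgeR adjusted p = 0.013), at 24.5, 10.6 and 15.7 CPM in HPC, against 8.43, 5.02 and 7.16 CPM in LPC. Of 36 other proteases and inhibitors, 27 were tested and 1, Adam12, was lower (1.92-fold, edgeR adjusted p = 0.046). Each of these 3 lists held 1 call, beside 1.43% of all tested genes called as higher and 1.1% as lower. The median log2 fold change of these 3 lists was -0.005, 0.006 and 0.06. Without the block, edgeR called no gene of the 5 lists. Of their 154 tested genes, 13 (8.44%) were higher and 12 (7.79%) lower at an unadjusted edgeR p under 0.05. The shares of all tested genes were 5.06% and 4.31%.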

How the data were processed

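Libraries of polyadenylated transcript 3' ends were made from total RNA with the QuantSeq FWD kit and sequenced on a NextSeq 500, per the labels' protocols. STAR and GRCm38 are named in the submitters' processing notes, with no counting program, annotation release, strand setting or molecular identifiers given. Whole-number counts were deposited in 1 table for 6 libraries, 3 per group, whose columns were matched to samples by name. No label says that replicates came from separate cultures or sorts. The p-values therefore rest on a spread between libraries that may be technical.

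Genes were filtered with filterByExpr and scaled with TMM factors. Groups were tested by the quasi-likelihood F-test of edgeR 4.0.16 (R 4.3.3), group only, with Benjamini-Hochberg adjustment over 11921 genes and a threshold of 0.05. Standard errors come from the F statistic, intervals are 95%, and CPM uses the TMM-scaled library sizes. Pair differences use log2 CPM with a prior count of 2. DESeq2 1.42.0 and limma-voom (limma 3.58.1) were alternatives. The tests were tested on simulated data in which equally numbered libraries shared a replicate effect. That simulation cannot show whether pairing by number holds in the real libraries. Replicate numbers come from the titles: deviations of equally numbered libraries from their group means correlated at 0.42, 0.35 and 0.65, all above the 0.1 set for pairing, so the fit with the number as a block (2 residual degrees of freedom) is given where it changes a call. Coordinates are GENCODE M21 on GRCm38. The length and GC correction removed a per-library spline of each from 11862 genes.

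The members and lists were chosen with earlier results of these data known. Named are members called with or without the block, those with an unadjusted p under 0.05 and at least 1 CPM, the 8 highest, the highest of each role and the 6 single proteins, and up to 4 called genes of each list.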

Additional observations from a re-analysis of the deposited data

How the results depend on the processing

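Without the block, the count of members called stayed at 0 under the other scalings, filters and limma-voom and after the length and GC correction, and was 4 with DESeq2. With the replicate block it was 6 with edgeR, 12 with DESeq2 and 6 with limma-voom. In the blocked edgeR fit it was 6 with RLE scaling, 5 with upper quartile scaling, 4 with library size only, 13 with no filter, 6 with at least 1 CPM in 3 libraries and 6 with the length and GC correction. Leaving out 1 library without the block it stayed at 0. With the replicate block, which leaves 1 residual degree of freedom once a pair is left out, leaving out pair 1 gave 32 members, pair 2 gave 0 and pair 3 gave 6. Named members called with pair 1 left out but not in the blocked fit of all libraries were Adamts1, Col5a3, Itga3, Itga4, Lamc1, Loxl3, Mmp14, Mmp17, Fn1, Spp1 and Timp2. All blocked fits with another scaling or filter and the length and GC correction were added after the data were seen.

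Over all genes, the 5 calls became 28 with no filter, 1 with at least 1 CPM in 3 libraries and 224 with DESeq2. With the replicate block they became 301 with edgeR, 500 with DESeq2 and 298 with limma-voom, and in the blocked edgeR fit 312 with RLE scaling, 289 with upper quartile scaling, 332 with library size only, 616 with no filter, 300 with at least 1 CPM in 3 libraries and 372 with the length and GC correction. Leaving out 1 library gave 0 to 43, with 0 without any 1 HPC library or LPC replicate 2, and with the replicate block omitting pair 1, 2 or 3 gave 2947, 0 or 196. No scaling moved the median log2 fold change of all genes by over 0.1.

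Of the 22 named members tested, 5 changed sign under some alternative. Leaving out 1 library, the log2 fold change ran from -0.18 to 0.036 for Adamts1, -0.14 to 0.14 for Lamc1, -0.22 to 0.0023 for Mmp14, -0.13 to 0.096 for Plod1 and -0.22 to 0.35 for Vcan. In the blocked fit, Adamts1 was at 0.033 with pair 3 left out, Lamc1 at 0.24 with pair 1 left out (edgeR adjusted p = 0.032), Plod1 at 0.080 with pair 2 left out, and Vcan at -0.030, -0.23 and 0.48 with pair 1, 2 or 3 left out. Plod1 was also at 0.0080 and 0.0017 in the blocked fit with no filter and with at least 1 CPM in 3 libraries, and Vcan at -0.036 and, with the block, -0.058 after the length and GC correction. The cause was not tested. Depth limits Col4a4, Itga3, Itga8, Mmp17 and Vcan, which average under 3 CPM.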
